A study of Mus musculus with 11 samples.

Results

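The genes described here are the receptors, co-receptors and transcription factors of the Hedgehog pathway in NIH/3T3 cells: Ptch1, Smo, Boc, Cdon, Gas1, Gli1, Gli2, Gli3 and Sufu. They were taken by symbol from the deposited table, and all 9 were found among its 21684 genes and passed the filter on low counts that left 13332 genes for testing. NIH/3T3 is an established mouse embryonic fibroblast line that forms primary cilia when serum is withdrawn. The series asks which transcripts depend on Xap5, Nono and Sox5 while the cilium forms. All 11 libraries came from cells kept without serum for 24 h, and they fell into 4 groups by genotype: WT with 2 libraries, and the knockouts Xap5 KO, Nono KO plus Sox5 KO with 3 libraries each. The labels name neither separate clones nor separate cultures, so each knockout was taken as 1 line. The p-values therefore measure the spread between these libraries, which may be technical. The labels name no Hedgehog ligand or agonist for any group, so every level below is that of cells without a stated pathway stimulus.

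In vertebrates the Hedgehog signal passes through the primary cilium. Ptch1, the receptor, keeps the membrane protein Smo out of an active state, and binding of a ligand lifts this block. The co-receptors Gas1, Cdon and Boc bind the ligand together with Ptch1. Sufu holds the Gli proteins in check in the cytoplasm. Gli2 acts mostly as an activator once the pathway is on, and Gli3 is the main source of the truncated repressor when it is off. Gli1 and Ptch1 are themselves targets of the Gli factors, and their transcripts are widely used to read the activity of the pathway.

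The sequences just before the RefSeq transcription start (GRCm38.p6) are shown for Ptch1, the receptor that is also a target, for Smo, which was lower in every knockout, and for Sufu, the single member with a Sox core motif in this window. The RefSeq promoter table held 7 of the 9 genes. Each sequence is given 5′ to 3′ on the strand of its gene, and the capitals in that of Sufu mark the Sox core.
Ptch1 (chr13:63565736-63565985, minus strand): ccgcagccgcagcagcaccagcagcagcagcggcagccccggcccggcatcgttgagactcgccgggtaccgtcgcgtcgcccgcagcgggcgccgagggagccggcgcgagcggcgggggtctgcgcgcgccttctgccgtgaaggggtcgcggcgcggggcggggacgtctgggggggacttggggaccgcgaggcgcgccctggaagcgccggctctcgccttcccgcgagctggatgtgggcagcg
Smo (chr6:29735247-29735496, plus strand): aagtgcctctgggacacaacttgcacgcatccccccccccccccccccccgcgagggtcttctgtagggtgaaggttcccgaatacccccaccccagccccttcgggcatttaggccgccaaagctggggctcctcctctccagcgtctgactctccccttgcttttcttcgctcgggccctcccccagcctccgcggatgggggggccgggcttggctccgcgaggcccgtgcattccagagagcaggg
Sufu (chr19:46396646-46396895, plus strand): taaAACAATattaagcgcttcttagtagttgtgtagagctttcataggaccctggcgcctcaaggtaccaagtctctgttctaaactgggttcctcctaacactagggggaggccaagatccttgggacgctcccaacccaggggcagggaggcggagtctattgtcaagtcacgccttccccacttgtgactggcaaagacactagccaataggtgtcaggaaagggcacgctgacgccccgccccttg
The windows were searched on both strands for the Gli site GACCACCCA and the Sox core AACAAT. None of the 7 members held the Gli site, which occurred in 0.225% of 32851 windows of the same length in that table. Sufu alone held the Sox core, at position -247 from the start, and 9.42% of all windows held it. A match or its absence in so short a window says nothing about binding.

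The libraries held 30205878 to 43498383 counts each, and mitochondrial genes took 6.06% to 10.3% of them. The Xap5 gene, Fam50a by its mouse symbol, a name taken from general knowledge, stood at 12.2% of WT in its own knockout, and Nono at 9.00%. Sox5 stood at 28.2% of WT with Sox5 targeted, but also at 28.7% with Xap5 targeted and at 16.3% with Nono targeted. Here CPM is the depth-scaled count that edgeR computes on the scaled library total. Of the fibroblast markers 9 of 9 were tested; in WT the levels ranged from Thy1, at 13.7 and 20.06 CPM, up to Fn1, the most abundant. Their summed level was 23890 to 23940 CPM in WT, 18330 to 19640 in Xap5 KO, 47600 to 52280 in Nono KO and 19640 to 20140 in Sox5 KO. Epithelial markers summed to at most 0.497 CPM in any library. The summed leukocyte markers (2 of 4 tested) lay at 7.26 to 10.9 CPM in Nono KO against 1.91 to 2.28 in WT, 3.01 to 3.38 in Xap5 KO and 1.88 to 2.68 in Sox5 KO. The leukocyte sum followed Ptprc, at 6.00 to 7.31 CPM in Nono KO and at most 0.412 elsewhere, while Cd68 lay at 1.11 to 3.604 in Nono KO and at 1.82 and 2.16 in WT. The summed neural markers (3 of 4 tested) lay at 26.0 to 26.6 CPM in Nono KO, 11.1 to 13.96 in WT, 9.17 to 10.2 in Xap5 KO and 0.0619 to 0.351 in Sox5 KO, most of it Map2, and Sox10 was at 0 in Nono KO and Sox5 KO. The summed endothelial markers (2 of 4 tested) reached 2.79 CPM in Nono KO and 0.772 in WT. The summed skeletal muscle markers (2 of 4 tested) lay at 0.386 to 0.397 CPM in WT, 1.88 to 3.86 in Xap5 KO, 0.974 to 1.16 in Nono KO and 1.76 to 2.17 in Sox5 KO. In the knockouts most of this was Des, which was at 0 in WT, and Myod1 was at 0 in every library. Their part in the results below was not tested. In bulk RNA, fewer cells that express a gene and less RNA per cell cannot be told apart.

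Of the 9 genes, 8 changed in at least 1 knockout line against WT, as did 80.3% of all tested genes, and 5 of them were called in both directions. Changes were tested with edgeR's quasi-likelihood test, and a gene was called at a Benjamini-Hochberg adjusted p under 0.05 over all tested genes. In Xap5 KO 4 members rose and 2 fell, against 45.5% of all tested genes called. In Nono KO 4 rose and 3 fell, against 48.6% of all tested genes called. In Sox5 KO 1 rose and 6 fell, against 60.9% called, with 30.6% of tested genes higher and 30.3% lower. With the length and GC offset described further on, 2 rose and 3 fell in Sox5 KO, and with the chromosome offset 2 rose and 3 fell in Nono KO. The median log2 change of the members was 0.27 with Xap5 targeted, 0.22 with Nono targeted and -0.53 with Sox5 targeted. The medians of all tested genes were 0.0026, -0.020 and -0.0058 in that order. Each member median is the value of a single gene: Gli1 (SE 1.40) in Xap5 KO, Gas1 in Nono KO and Gli2 in Sox5 KO. Gli1 lay close to the detection limit and also enters the median in Nono KO. With the length and GC offset Gli2 in Sox5 KO stood at 0.0021. No shift of the members as a set is read from these medians. Boc rose in all 3 lines, as did 8.33% of tested genes, and Smo fell in all 3, as did 7.61%. Ptch1, Cdon, Gas1, Gli2 and Gli3 were called higher in at least 1 line and lower in at least 1 other, a pattern shared by 14.8% of tested genes. All 3 comparisons share the same 2 WT libraries, so the values of the lines are set side by side and are not independent of each other.

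**Figure D1:**
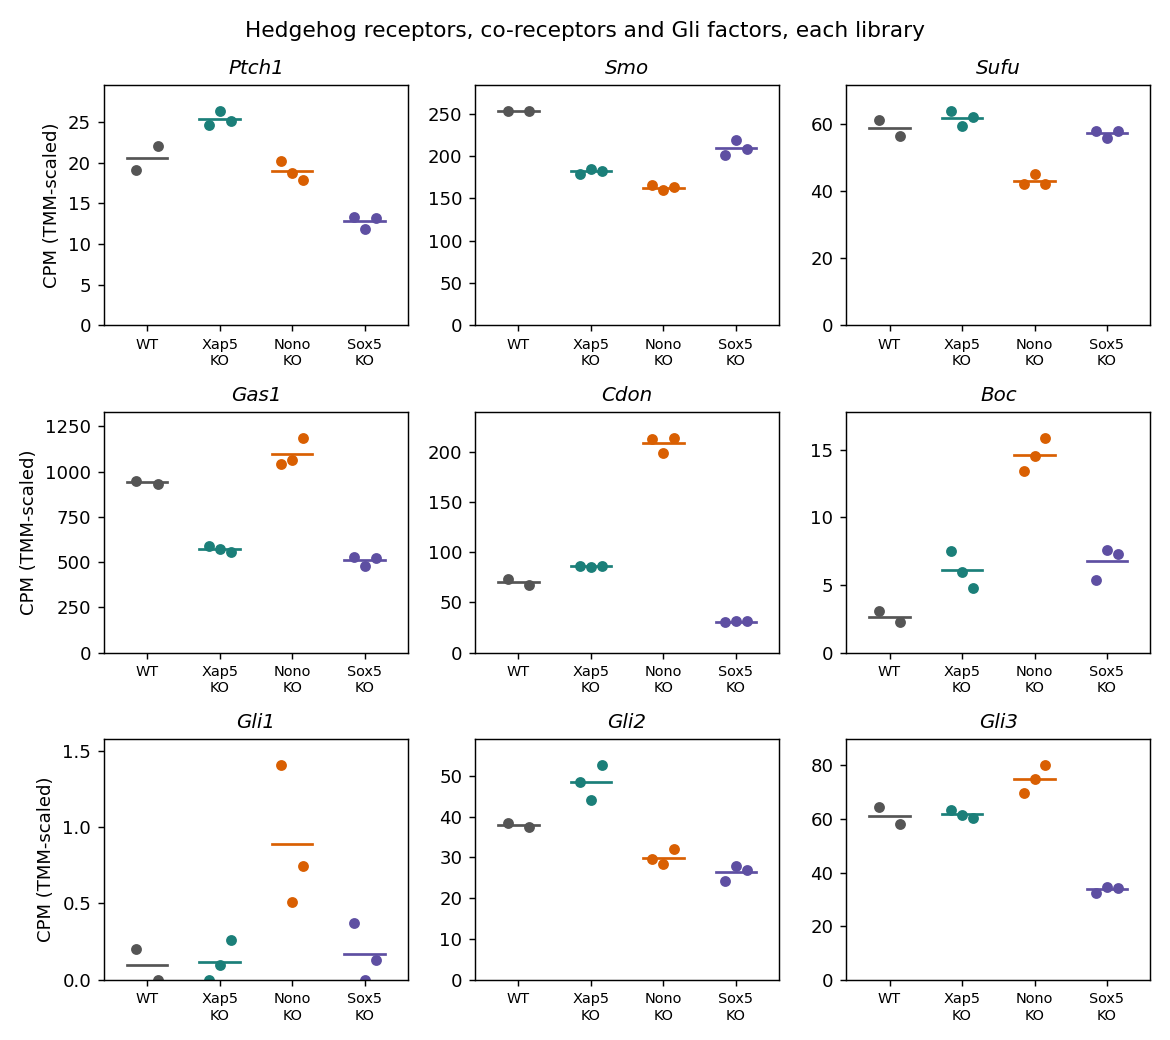
Level of each of the 9 genes in every library, in CPM on the scaled library total (linear axes from 0). Points are libraries and horizontal lines are group means (2 libraries for WT, 3 for each knockout); Smo lies lower in all knockout libraries than in WT, Boc higher, and Cdon spans the range from 30.3 in a Sox5 KO library to 214 in a Nono KO library.

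Of the membrane receptors, Ptch1 (ENSMUSG00000021466) was expressed at a low level. Its CPM values were 19.1 and 22.04 for WT, 24.7, 26.4 and 25.2 for the Xap5 knockout, 20.3, 18.8 and 17.9 for the Nono knockout, and 13.3, 11.9 and 13.2 for the Sox5 knockout. The Xap5 KO libraries all lay above WT and the Sox5 KO libraries all below it, while those of Nono KO overlapped WT. Ptch1 rose by a log2 change of 0.31 (SE 0.11) in Xap5 KO, with an adjusted p of 0.030 by the quasi-likelihood test of edgeR. This call was lost without WT replicate 1 (0.20, adjusted p = 0.312), Xap5 KO replicate 2 (0.27, adjusted p = 0.0967) or Xap5 KO replicate 3 (0.31, adjusted p = 0.0514). In Sox5 KO the log2 change was -0.68 (SE 0.11, adjusted p = 2.07e-05), to 62.3% of WT. In Nono KO it was -0.11 (SE 0.11, adjusted p = 0.423), which did not pass the test.

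Smo (ENSMUSG00000001761), the transducer that moves into the cilium when Ptch1 leaves it, was much more abundant. Its WT libraries stood at 253 CPM each. The Xap5 KO libraries gave 178, 185 and 182 CPM, those of Nono KO 166, 159 and 163, and those of Sox5 KO 201, 218 and 208. No knockout library reached the WT level, and the order from WT over Sox5 KO and Xap5 KO to Nono KO held without overlap. The log2 change was -0.48 (SE 0.055, adjusted p = 4.19e-07) in Xap5 KO, -0.64 (SE 0.055, adjusted p = 4.28e-09) in Nono KO and -0.27 (SE 0.056, adjusted p = 0.000216) in Sox5 KO, all by edgeR's quasi-likelihood test. The level was 71.8%, 64.3% and 82.7% of WT in those lines. The pairwise differences between the lines passed the same test, with adjusted p of 0.0107 for Xap5 KO against Nono KO, 0.00133 for Xap5 KO against Sox5 KO and 1.90e-06 for Nono KO against Sox5 KO.

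The largest called change of a member in each line was that of a co-receptor, Boc, and each of the 3 co-receptors had a pattern of its own. Boc (ENSMUSG00000022687), an immunoglobulin-family cell surface protein, was rare in WT and rose in every line. The WT libraries held 123 and 100 counts of Boc, or 3.05 and 2.27 CPM. Xap5 KO libraries gave 7.49, 5.96 and 4.79 CPM, Nono KO libraries 13.5, 14.5 and 15.9, and Sox5 KO libraries 5.35, 7.63 and 7.30. Every knockout library lay above both WT libraries, those of Nono KO lay above all others, and those of Xap5 KO and Sox5 KO overlapped. By edgeR's quasi-likelihood test Boc rose 2.29-fold in Xap5 KO (log2 change 1.19, SE 0.22, adjusted p = 0.000151), 5.50-fold in Nono KO (2.46, SE 0.23, adjusted p = 1.12e-08) and 2.54-fold in Sox5 KO (1.35, SE 0.22, adjusted p = 2.24e-05). Nono KO exceeded Xap5 KO (log2 difference of Xap5 KO minus Nono KO -1.26, adjusted p = 5.85e-06) and Sox5 KO (Nono KO minus Sox5 KO 1.11, adjusted p = 1.90e-05), and Xap5 KO and Sox5 KO differed by -0.15 (SE 0.19, adjusted p = 0.501).

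Cdon (ENSMUSG00000038119), the close relative of Boc, moved in opposite directions. The WT libraries gave 73.9 and 67.2 CPM, and those of Xap5 KO 86.3, 85.7 and 86.2. The Nono KO libraries stood at 213, 199 and 214 CPM, and those of Sox5 KO at 30.3, 31.4 and 31.4 CPM. None of the 4 groups overlapped another, and the lowest Nono KO library lay far above the highest library of any other group. Cdon rose 2.96-fold in Nono KO (log2 change 1.57, SE 0.065, adjusted p = 3.01e-14) and fell to 44.0% of WT in Sox5 KO (-1.19, SE 0.064, adjusted p = 1.15e-12), with a smaller rise in Xap5 KO (0.29, SE 0.063, adjusted p = 0.000810), all by edgeR's quasi-likelihood test. Between Nono KO and Sox5 KO the difference was 6.74-fold (log2 2.75, adjusted p = 7.67e-19).

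Gas1 (ENSMUSG00000052957), a GPI-anchored protein first known for its rise in growth-arrested fibroblasts, was the most abundant member. Measured in CPM, WT gave 949 and 933, Xap5 KO 590, 573 and 554, Nono KO 1043, 1064 and 1187, and Sox5 KO 531, 480 and 525. Nono KO lay above WT, and Xap5 KO and Sox5 KO lay below it with no overlap between any groups. The log2 change was -0.72 (SE 0.064, adjusted p = 9.30e-09) in Xap5 KO, -0.88 (SE 0.064, adjusted p = 1.53e-10) in Sox5 KO and 0.22 (SE 0.065, adjusted p = 0.00722) in Nono KO by edgeR's quasi-likelihood test. The rise in Nono KO was lost without WT replicate 2 (0.22, adjusted p = 0.0616). Exons of Gas1, Gli1 and Gli3 overlap those of other genes on the opposite strand in GENCODE M21, and the handling of strand in the counting is not given in the sources used here, so these counts are uncertain to that extent.

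**Figure D2:**
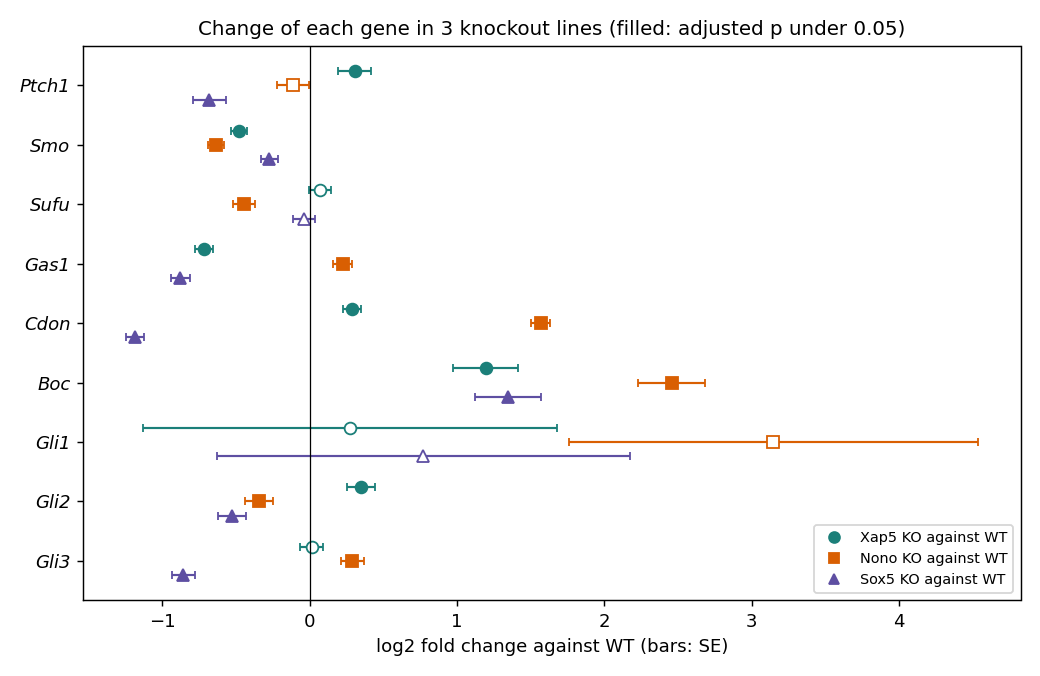
Log2 fold change of each gene in each knockout line against WT (horizontal axis; bars are the SE of the fit, filled symbols passed an adjusted p of 0.05). Boc lies to the right of 0 and Smo to the left in all 3 lines, and Cdon, at 1.57 in Nono KO and -1.19 in Sox5 KO, has the widest spread among the members with a small SE.

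Among the transcription factors, Gli1 (ENSMUSG00000025407), the target that also amplifies the signal, was close to the detection limit. Its counts were 8 and 0 in WT, 0, 4 and 10 in Xap5 KO, 57, 21 and 27 in Nono KO and 12, 0 and 4 in Sox5 KO. The Nono KO libraries were the highest and did not overlap the others, at 1.41, 0.511 and 0.746 CPM, but they too lay well under the level of every other member. The highest libraries of Xap5 KO and Sox5 KO also reached the minimum of the filter on low counts, as did all those of Nono KO. The log2 change in Nono KO was 3.15 (SE 1.39, adjusted p = 0.0671), so no change against WT was called by edgeR's quasi-likelihood test. DESeq2 gave an adjusted p of 0.0490 for this change. The alternatives gave adjusted p of 0.0291 to 0.350 for it. It was called without Xap5 KO replicate 1 (3.16, adjusted p = 0.0410) and without WT replicate 1 (adjusted p = 0.0369), where the WT library that is left held 0 counts, the spread was taken from the other groups and the fitted change is no bound. Without WT replicate 2 it was 2.15 (adjusted p = 0.350). As its counts were so few and most of them lay in Nono KO, its differences from that line are given as values and support nothing. Exons of Arhgap9 overlap those of Gli1 on the other strand, and its counts were highest in Xap5 KO (144, 184 and 261) and stood at 27, 32 and 22 in Nono KO.

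Gli2 (ENSMUSG00000048402) was expressed at a moderate level and moved both ways. WT libraries gave 38.5 and 37.5 CPM, Xap5 KO libraries 48.5, 44.1 and 52.7, Nono KO libraries 29.5, 28.4 and 32.0, and Sox5 KO libraries 24.3, 27.9 and 27.0. Xap5 KO lay above WT and Nono KO and Sox5 KO below it, without overlap with WT in any case. By edgeR's quasi-likelihood test the log2 change was 0.35 (SE 0.094, adjusted p = 0.00465) in Xap5 KO, -0.34 (SE 0.094, adjusted p = 0.00439) in Nono KO and -0.53 (SE 0.094, adjusted p = 5.58e-05) in Sox5 KO. Without WT replicate 2 the rise in Xap5 KO was 0.32 (adjusted p = 0.0524). Gli2 did not differ between Nono KO and Sox5 KO at this threshold (0.18, adjusted p = 0.0699).

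Gli3 (ENSMUSG00000021318) gave 64.6 and 58.1 CPM for the WT libraries and 63.5, 61.7 and 60.5 for those of Xap5 KO. Nono KO libraries gave 69.8, 74.8 and 80.2 CPM, and Sox5 KO libraries 32.4, 34.6 and 34.5. Xap5 KO lay within the range of WT, Nono KO above it and Sox5 KO far below it. The log2 change was -0.86 (SE 0.079, adjusted p = 6.00e-09) in Sox5 KO, to 55.1% of WT, and 0.29 (SE 0.079, adjusted p = 0.00447) in Nono KO, by edgeR's quasi-likelihood test. The value in Xap5 KO was 0.014 (SE 0.079, adjusted p = 0.907). Without WT replicate 2 the value in Nono KO was 0.22 (adjusted p = 0.0919).

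Sufu (ENSMUSG00000025231), the negative regulator that binds all Gli proteins, passed the test in Nono KO and in neither other line. Its CPM was 61.2 and 56.4 for WT, 64.0, 59.4 and 62.0 for the Xap5 knockout, 42.1, 45.2 and 42.3 for the Nono knockout, and 58.0, 55.8 and 58.0 for the Sox5 knockout. The Nono KO libraries were the lowest, and Xap5 KO and Sox5 KO overlapped WT. The log2 change in Nono KO was -0.44 (SE 0.075, adjusted p = 4.33e-05), to 73.5% of WT. The Nono knockout also differed from Xap5 KO (Xap5 KO minus Nono KO 0.52, adjusted p = 1.57e-06) and from Sox5 KO (Nono KO minus Sox5 KO -0.41, adjusted p = 2.22e-05), as tested by edgeR's quasi-likelihood method. In Sox5 KO the log2 change of Sufu was -0.038 (SE 0.075, adjusted p = 0.690 by the same test). With offsets described further on it was 0.19 (length and GC) and -0.43 (chromosome). These values say nothing about the Sox core in the window before Sufu, as Sox5 RNA was also lower in Xap5 KO and Nono KO.

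Levels of different genes can be compared only per transcript length, and here each CPM was divided by the kb of the longest annotated transcript. In WT the order of mean levels was Gas1 at 318 CPM per kb, Smo at 67.0, Sufu at 13.0, Cdon at 9.40, Gli3 at 7.504, Gli2 at 5.73, Ptch1 at 1.98, Boc at 0.598 and Gli1 at 0.0245, and no neighbours overlapped. Cdon moved to the third place in Nono KO, at 27.9 CPM per kb, ahead of Sufu at 9.55 and Gli3 at 9.17, which overlapped. Boc, at 3.28 CPM per kb, stood above Ptch1 at 1.83 in Nono KO on this scale. In Sox5 KO Gli3, Cdon and Gli2 stood at 4.14, 4.13 and 3.98 CPM per kb and did not differ beyond their spread, and the ranges of Boc and Ptch1 also overlapped. In Xap5 KO only Gli3 and Gli2, at 7.58 and 7.29 CPM per kb, overlapped. Much of the order depended on the transcript chosen. With the median transcript length Ptch1 stood above Boc in every group (11.4 against 3.28 CPM per kb in Nono KO), Cdon stood above Smo in Xap5 KO and Nono KO, and Cdon and Gli2 stood above Sufu and Gli3 in WT. Gas1 was highest and Gli1 lowest with either length.

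**Figure D3:**
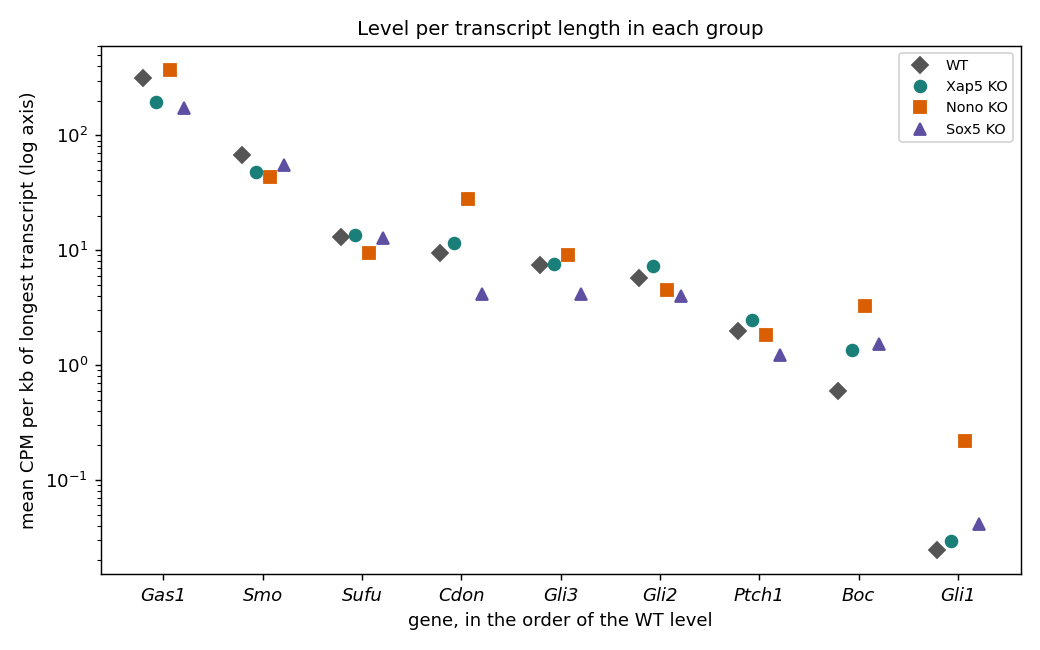
Mean level of each gene per kb of its longest transcript in the 4 groups (log axis), with genes ordered by the WT level. Gas1 is highest in every group, at 173 to 371 CPM per kb, and Gli1 is lowest; Boc in Nono KO lies above Ptch1 of the same group here but not with the median transcript length.

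Ratios between members within a library do not depend on the scaling of that library. The ratio of Gli3 to Gli2 per kb was 1.36 and 1.26 in WT, 1.06, 1.14 and 0.934 in Xap5 KO, 1.92, 2.14 and 2.04 in Nono KO, and 1.08, 1.01 and 1.04 in Sox5 KO. Every Nono KO library thus lay above WT, and every Xap5 KO and Sox5 KO library below it. The ratio of Smo to Ptch1 was 36.5 and 31.5 in WT. It was 19.8, 19.3 and 19.8 in Xap5 KO, 22.4, 23.3 and 25.0 in Nono KO and 41.5, 50.6 and 43.3 in Sox5 KO, so that Xap5 KO and Nono KO lay below WT and Sox5 KO above it. The place of Sox5 KO does not hold with the length and GC offset, where the log2 change there was -0.11 for Smo and -0.019 for Ptch1. The size of ratios between genes also depends on the transcript chosen.

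Gas1 made up most of the co-receptor transcripts per kb in every library, at 96.8% and 97.1% in WT, 93.7% to 93.8% in Xap5 KO, 91.8% to 92.6% in Nono KO and 96.5% to 97.2% in Sox5 KO. Nono KO had the lowest share and Sox5 KO overlapped WT. The ratio of Boc to Cdon was 0.0697 and 0.0569 in WT and 0.298, 0.410 and 0.392 in Sox5 KO, where Boc was higher and Cdon lower than in WT. It was 0.0937 to 0.146 in Xap5 KO and 0.106 to 0.125 in Nono KO, so every knockout library lay above WT. The ratio of Sufu to the summed Gli genes was 0.983 and 0.978 in WT, 0.890 to 0.939 in Xap5 KO, 0.631 to 0.737 in Nono KO and 1.46 to 1.66 in Sox5 KO, with no overlap between any groups.

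Between knockout lines, Xap5 KO and Nono KO differed in 9 members, with 4 higher and 5 lower in Xap5 KO, against 53.0% of all tested genes called. Among the 5 lower ones is Gli1, which lay close to the detection limit, and without it 4 were higher and 4 lower. Under the alternatives 7 to 9 members differed. Xap5 KO and Sox5 KO differed in 6, with 5 higher and 1 lower in Xap5 KO, against 61.6% called. Nono KO and Sox5 KO differed in 7, with 5 higher and 2 lower in Nono KO, against 63.5% called. Ptch1 was lower in Sox5 KO than in Xap5 KO by a log2 difference of 0.99 (adjusted p = 3.49e-08) and than in Nono KO by 0.57 (adjusted p = 5.57e-05). The length and GC offset described further on put Ptch1 at -0.062 against WT with Nono targeted and at -0.019 with Sox5 targeted. Its value with Xap5 targeted was 0.40. Under that offset Ptch1 was thus not lower with Sox5 targeted than with Nono targeted. Gli3 was lower in Sox5 KO than in Xap5 KO by 0.87 (adjusted p = 1.21e-09), and Gas1 was higher in Nono KO than in Sox5 KO by 1.10 (adjusted p = 8.63e-13). Sufu differed between Xap5 KO and Sox5 KO by 0.11 (adjusted p = 0.165), which did not pass edgeR's quasi-likelihood test.

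Transcript length and chromosome moved with some of these values. In Sox5 KO the median log2 change of all tested genes ran from 0.42 in the quartile of shortest transcripts to -0.41 in that of the longest, and Ptch1, Gli3, Cdon and Gli2 belong to the latter. With a length and GC offset fitted in each library, the change of Ptch1 in Sox5 KO was -0.019 (adjusted p = 0.901) and that of Gli2 was 0.0021 (adjusted p = 0.988), so neither call held. Smo in Sox5 KO then stood at -0.11 (adjusted p = 0.0813), and Sufu was called higher there, at 0.19 (adjusted p = 0.0355). Gli3 at -0.33, Cdon at -0.71, Gas1 at -0.85 and Boc at 1.56 kept their calls in Sox5 KO. In Nono KO the fall of Gli2 shrank to -0.16 (adjusted p = 0.151), and in Xap5 KO Sufu was called higher at 0.21 (adjusted p = 0.0263). From the shortest to the longest quartile the median of all genes ran from 0.077 to -0.052 in Xap5 KO and from 0.093 to -0.10 in Nono KO, a smaller range than in Sox5 KO.

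The median change of tested genes also differed between chromosomes. All 9 tested genes of chromosome Y, which holds no member, were called lower in each knockout line, and the cause was not tested. On chromosome 13, which holds Ptch1, Gas1 and Gli3, the median log2 change of tested genes was 0.29 in Xap5 KO, and with the chromosome median taken off Ptch1 stood at -0.0030 (adjusted p = 0.988). Gli3 in Xap5 KO then was called lower at -0.29 (adjusted p = 0.00609), and Gas1 fell further, to -1.03. On chromosome 6, which holds Smo, the medians for the Xap5, Nono and Sox5 knockouts were -0.25, -0.19 and -0.35. With this offset Smo remained lower in Xap5 KO (-0.21) and Nono KO (-0.42) and was not called in Sox5 KO (0.079, adjusted p = 0.236). In Nono KO the median was 0.35 on chromosome 9 and 0.27 on chromosome 16, and with the offset Cdon still stood at 1.21 and Boc at 2.21. On chromosome 19, which holds Sufu, the median was 0.39 in Sox5 KO, and Sufu was called lower there with the offset, at -0.43 (adjusted p = 3.67e-05), opposite to its call with the length offset. Gas1 and Gli3 in Nono KO, at 0.13 (adjusted p = 0.115) and 0.20 (adjusted p = 0.0503), were not called. All these p-values are from edgeR's quasi-likelihood test with the offset.

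**Figure D4:**
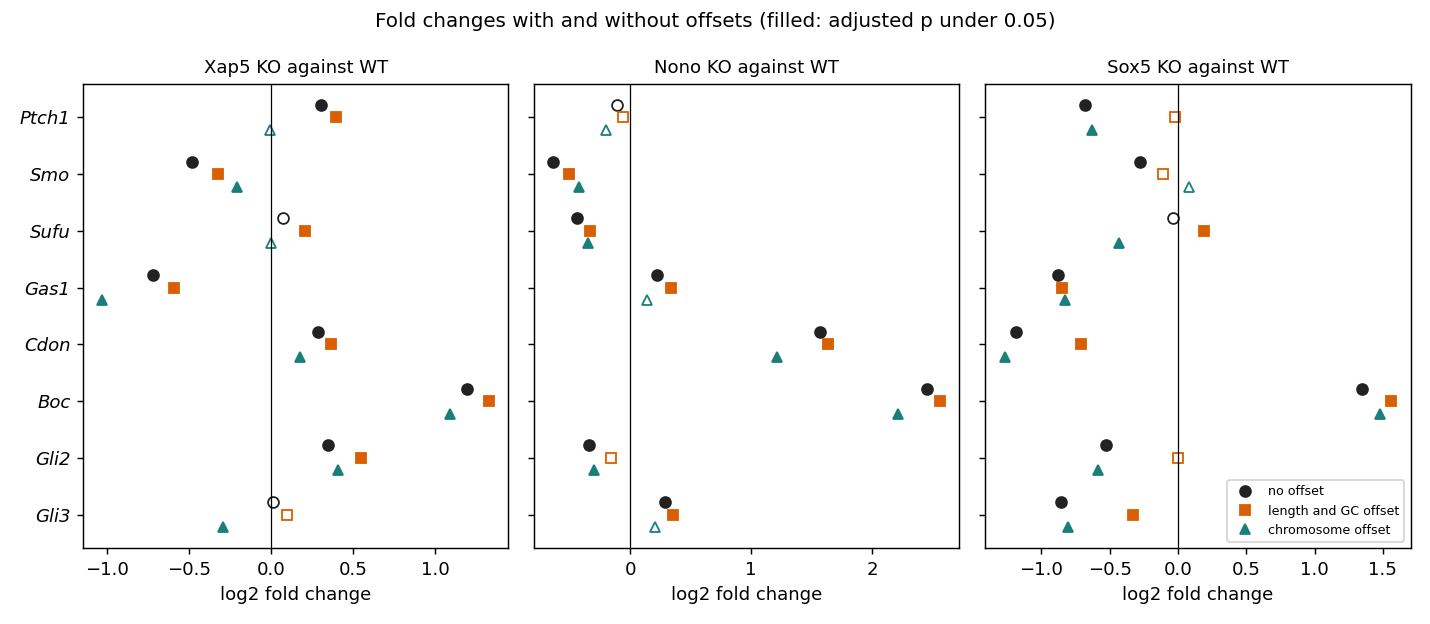
Log2 fold change of 8 of the 9 genes against WT without an offset, with a length and GC offset, and with the median of the gene's chromosome taken off (horizontal axis; 1 panel for each knockout line, with scales that differ; filled symbols passed an adjusted p of 0.05; Gli1 is left out for its large SE). Boc and Cdon keep their side of 0 and their call in every panel, and Ptch1 moves from -0.68 to -0.019 in Sox5 KO with the length and GC offset.

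Of 45 other genes of the pathway, 38 were tested. In Xap5 KO 7 rose and 11 fell, in Nono KO 8 rose and 14 fell, and in Sox5 KO 8 rose and 15 fell. These counts are 47.4%, 57.9% and 60.5% of the tested list, beside 45.5%, 48.6% and 60.9% of all tested genes called in those lines. The list had medians of -0.082, -0.28 and -0.14 on the log2 scale in that order, the same with genes at the floor set to their bound. Transcripts of the ligands were rare: Shh was found with 2 counts in a single Sox5 KO library, Dhh with at most 9 counts in any library, and Ihh, with 23 and 19 counts in WT, passed the filter but not the test in any line. Hhat, which adds the palmitate that ligands need, fell in every line (log2 change -0.56 with Xap5 targeted, -0.43 with Nono targeted and -1.18 with Sox5 targeted). Without WT replicate 2 the change of Hhat in Nono KO was -0.41 and was not called. Disp1, which releases ligands, fell by 1.60 in Xap5 KO and by 1.58 in Nono KO (adjusted p = 1.85e-09 and 1.65e-09, edgeR's quasi-likelihood test), and stood at -0.29 in Sox5 KO (adjusted p = 0.0575).

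Hhip, a decoy receptor and target, held 2 counts in 1 Xap5 KO library and 0 elsewhere. Gli1 and Hhip, both common readouts of the pathway, thus lay near or under the detection limit in WT.

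Of 12 ciliary membrane and receptor regulators, 2 rose and 2 fell in Xap5 KO, 2 rose and 7 fell in Nono KO, and 2 rose and 4 fell in Sox5 KO, beside the shares of 45.5%, 48.6% and 60.9% called among all tested genes. Iqce fell in all 3 lines (log2 change -0.31 with Xap5 targeted, -0.64 with Nono targeted and -0.83 with Sox5 targeted). Arrb1, a beta-arrestin, fell by 1.41 in Nono KO (adjusted p = 5.16e-09). Gpr161, a ciliary receptor that raises cAMP and restrains the pathway, stood at 47.5 CPM in WT and at log2 changes of 0.041, -0.61 and -0.59 for the Xap5, Nono and Sox5 knockouts, none of which passed edgeR's quasi-likelihood test (adjusted p = 0.958, 0.343 and 0.328). Its 3 Nono KO libraries lay at 10.7, 41.5 and 41.7 CPM, and without the lowest, replicate 1, the value in Sox5 KO was called (-0.59, adjusted p = 2.36e-06). Leaving out libraries gave -0.87 to -0.19 in Nono KO.

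Of 12 genes that process Gli proteins, 1 rose and 4 fell in Xap5 KO, 2 rose and 4 fell in Nono KO, and 4 rose and 4 fell in Sox5 KO, beside the same shares of all tested genes (45.5%, 48.6% and 60.9%). Kif7, the ciliary kinesin that works with Sufu on the Gli proteins, fell by 0.74 in Nono KO (adjusted p = 1.88e-06) and by 0.57 in Sox5 KO (adjusted p = 3.06e-05), and stood at 0.063 in Xap5 KO. The fall in Sox5 KO was not called with the length and GC offset (-0.21, adjusted p = 0.0632). Gsk3b, a kinase that marks Gli proteins for processing, fell by 1.26 in Sox5 KO (adjusted p = 1.39e-12) and rose by 0.19 in both Xap5 KO and Nono KO (adjusted p = 0.0290 and 0.0266). Both rises were lost with the replicate block (0.16, adjusted p = 0.0651, and 0.16, adjusted p = 0.0630), with library totals alone, with the chromosome offset and without WT replicate 2. The rise in Xap5 KO was also lost without Xap5 KO replicate 2 or 3, and that in Nono KO without Nono KO replicate 3. Prkacb, a catalytic subunit of protein kinase A, fell in all lines, by 1.01 in Sox5 KO (adjusted p = 2.18e-12, edgeR's quasi-likelihood test).

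Of 9 further targets tested of 10, 4 rose and 3 fell in Xap5 KO, 4 rose and 1 fell in Nono KO, and 2 rose and 5 fell in Sox5 KO, beside the same 45.5%, 48.6% and 60.9% of all tested genes. Sfrp1, a secreted Wnt antagonist, rose in every line, from 38.4 CPM in WT to 173, 359 and 167 CPM with the Xap5, Nono and Sox5 genes targeted (log2 change 2.17, 3.23 and 2.13). Mycn was at 0 in both WT libraries. It was called higher in Sox5 KO (24, 17 and 17 counts, at least 8.7-fold) and in Xap5 KO (5, 7 and 11 counts, at least 2.72-fold), against a floor of 3 counts per library. Mycn passed the filter on low counts only through Sox5 KO. Its rise there, which is among the 2 counted above, is therefore given as a value and supports nothing. The call in Xap5 KO was lost without WT replicate 1 (adjusted p = 0.133), WT replicate 2 (adjusted p = 0.142) or Xap5 KO replicate 3 (adjusted p = 0.0585). Foxl1 fell by 0.87 in Xap5 KO and by 1.00 in Sox5 KO, and Snai1 by 1.41 in Sox5 KO and by 0.50 in Nono KO. The fall of Foxl1 in Xap5 KO was not called with the chromosome offset (-0.51, adjusted p = 0.0529, edgeR's quasi-likelihood test). That of Snai1 in Nono KO was not called without WT replicate 1 (-0.46). The cyclin genes Ccnd1 and Ccnd2 fell in Xap5 KO and Sox5 KO and rose in Nono KO.

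**Figure D5:**
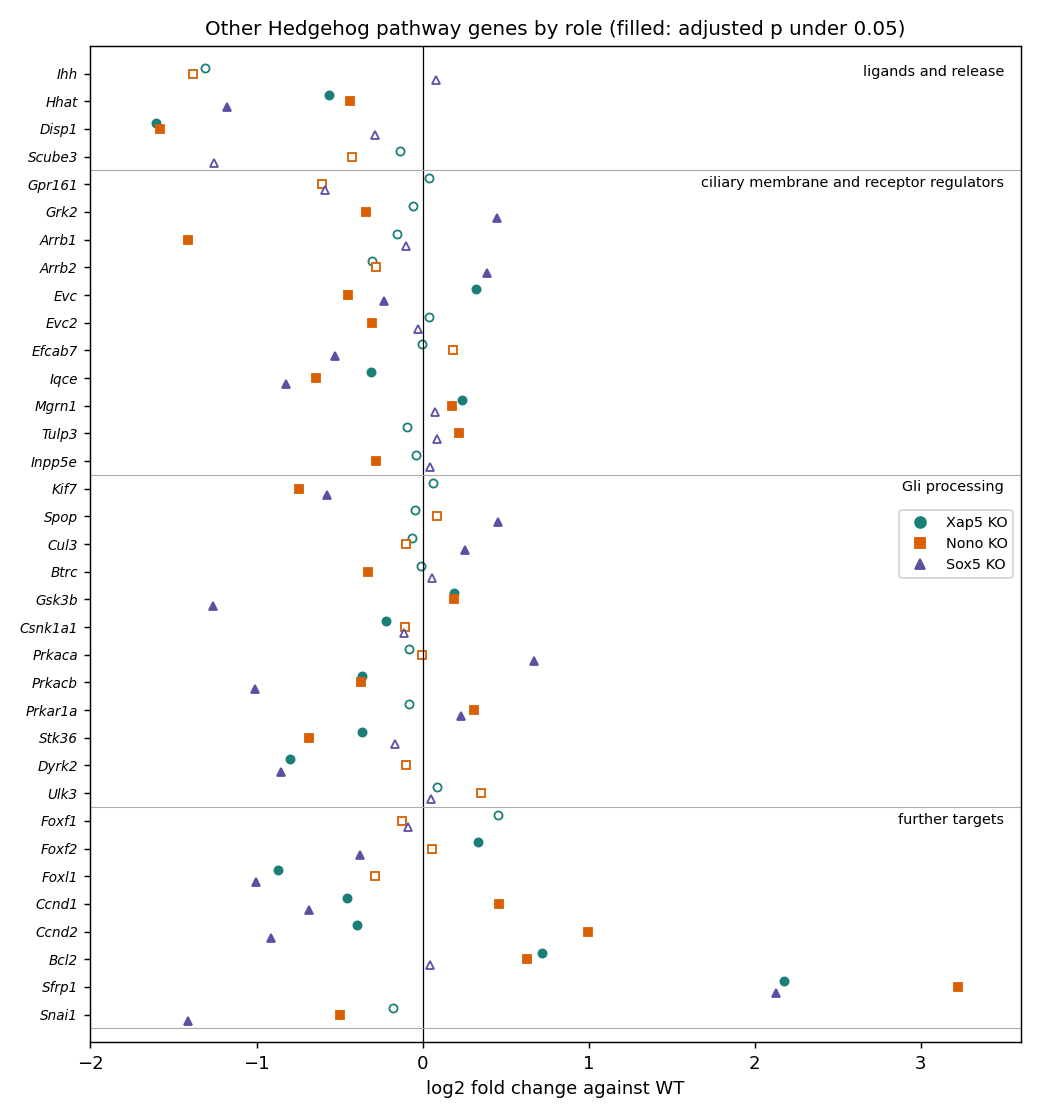
Log2 fold change of 35 other tested genes of the pathway in each knockout line against WT, grouped by role (filled symbols passed an adjusted p of 0.05; Mycn, with 0 counts in WT, is among those left out). Sfrp1 lies farthest to the right in all 3 lines, at up to 3.23 in Nono KO, and Disp1 farthest to the left in Xap5 KO and Nono KO.

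The genes whose pattern over the 11 libraries was most like that of Ptch1 were found by the root mean square difference of log2 CPM, each centred on its own WT mean, among 11503 genes of at least 1 CPM outside both lists. For Ptch1 these were Fam172a (0.090), Larp4b (0.091), Vps13a (0.094), Dhx29 (0.10) and Dcp2 (0.10), of which Fam172a, Larp4b and Dhx29 lie on chromosome 13 as Ptch1 does. For Gli1 they were Fbn1 (1.01), Paqr8 (1.03), Col1a1 (1.04), Dpt (1.06) and 9930012K11Rik (1.08). These distances are larger than those for Ptch1, but Gli1 had few counts, so they are not comparable. All 5 genes nearest to Gli1 were highest in Nono KO, with log2 changes against WT of 2.30 to 2.68. They were chosen for likeness to Gli1 in these same libraries, so this follows from the choice and supports nothing.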

How the data were processed

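RNA of 11 libraries was measured after TRIzol extraction and NEBNext Ultra II library preparation, per the labels' protocols. The authors deposited 1 table of whole-number gene values, per the file headers, which were treated as rounded estimated counts, because the value 2 occurs 3302 times and the value 1 occurs 857 times. If mates of a read pair were counted separately, the counts stand for fewer fragments. The submitters' processing notes name HISAT2 2.1.0, StringTie 1.3.3b, DESeq2 1.12.4 and the builds GRCm39 and mm39, without their roles, and the counting step is not given in the sources used here.

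All comparisons came from 1 fit of the 4 groups with edgeR 4.0.16 in R 4.3.3: TMM scaling, its expression filter (minimum count 10, minimum total 15), robust quasi-likelihood dispersions (common coefficient of variation 10.6%) and Benjamini-Hochberg adjustment over 13332 genes. Groups were taken from the genotype in the labels. Transcript length, GC content, chromosome and overlaps came from GENCODE M21 (GRCm38, 99.7% of tested genes matched), with no coordinates of it printed. Of the replicates, no pair held the same values (chi-square per degree of freedom 9.03 to 30.8). The code was tested on simulated data. Floors of 3 counts cover counting error only. Alternatives were DESeq2 1.42.0, other scalings, no filter, a fit of the compared groups alone, the offsets, a replicate block, median transcript length and each library left out.

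The members and gene lists were chosen with earlier results of these data known. By rule, all members were named, and of the other pathway genes Hhip, Kif7, Gpr161 and those called with at least a 2-fold change. Iqce, Ccnd1 and Ccnd2 were named after their values were seen. Some genes that enter the counts are not reported here by name.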

Additional observations from a re-analysis of the deposited data

Results flagged for a closer look

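The members Ptch1, Cdon, Gas1, Gli2 and Gli3, and the kinase gene Gsk3b, were called in opposite directions against WT in a pair of knockout lines and also differed between those lines in edgeR's quasi-likelihood test. The difference is the first line minus the second on the log2 scale. Ptch1 differed by 0.99 between Xap5 KO and Sox5 KO. Cdon differed by 1.47 between Xap5 KO and Sox5 KO and by 2.75 between Nono KO and Sox5 KO. Gas1 differed by -0.94 between Xap5 KO and Nono KO and by 1.10 between Nono KO and Sox5 KO. Gli2 differed by 0.69 between Xap5 KO and Nono KO and by 0.88 between Xap5 KO and Sox5 KO. Gli3 differed by 1.15 between Nono KO and Sox5 KO. Gsk3b differed by 1.45 between Xap5 KO and Sox5 KO and by 1.45 between Nono KO and Sox5 KO. The small rises of Gsk3b against WT, on which its opposite directions rest, were lost with the replicate block. Of these members only Cdon kept both directions and calls under every alternative. Ptch1 stood at -0.0030 in Xap5 KO with the chromosome offset and at -0.019 in Sox5 KO with the length and GC offset. With the latter offset Gli2 was not called in Sox5 KO (0.0021) or in Nono KO (-0.16). The rises of Gas1 and Gli3 in Nono KO were not called with library totals alone or with the chromosome offset. Groups of 2 or 3 libraries are too small for a test of single outlying libraries.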

How the results depend on the processing

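Under every alternative run, each count of called members and of other called pathway genes stayed within 1.5 times its value: 5 to 7 members in Xap5 KO, 5 to 8 in Nono KO and 5 to 7 in Sox5 KO. Of 27 values of members against WT, 12 kept their direction and their side of the threshold throughout, as did 21 of 36 values of other named genes. Those 12 are Boc and Cdon in all lines, Gas1 in Xap5 KO and Sox5 KO, Smo in Xap5 KO and Nono KO, Gli3 in Sox5 KO and Sufu in Nono KO. With library totals as the only scaling, the median over all tested genes shifted by -0.16 for Nono KO and -0.11 for Sox5 KO. With it, Gli3 in Xap5 KO turned to -0.039 and Gpr161 to -0.013, and Ptch1 was called lower in Nono KO (-0.28, adjusted p = 0.0433) and not called in Xap5 KO (0.25, adjusted p = 0.0738), while Gas1 and Gli3 in Nono KO, at 0.059 and 0.13, were not called. The chromosome offset turned Ptch1 in Xap5 KO to -0.0030, Gli3 in Xap5 KO to -0.29, Smo in Sox5 KO to 0.079 and Gsk3b in Nono KO to -0.058. The length and GC offset turned values in Sox5 KO: Gli2 to 0.0021, Sufu to 0.19, Disp1 to 0.0058 and Arrb1 to 0.37. Leaving out libraries turned Ptch1 in Nono KO (range -0.21 to 0.0026), Gli1 in Xap5 KO (-0.93 to 5.17, with -0.74 without WT replicate 2) and in Sox5 KO (-0.56 to 5.68, with -0.24 without WT replicate 2), Gli3 in Xap5 KO (-0.068 to 0.081, with -0.017 without Xap5 KO replicate 1) and Sufu in Sox5 KO (-0.099 to 0.014). It also turned Gpr161 in Xap5 KO (-0.0068 to 0.0567). Mycn in Nono KO had fitted values of 0 to 4.57, with 0 where both groups held no counts. Fitted values of Gli1 and Mycn against a group at 0 are no bounds. The cause of these shifts was not tested.

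The labels give replicate numbers in each group. Libraries with the same number shared at most a weak deviation (correlations of -0.023 to 0.046 in 15 pairs, none over 0.1). Still, 10 of 11 libraries correlated best with their own number, so a small shared part is not excluded. With the replicate block 6, 7 and 7 members were called against WT in the Xap5, Nono and Sox5 knockouts, as without it; Gli3 in Xap5 KO turned to -0.0017 and Gpr161 to -0.033. With the block and the length and GC offset in 1 fit, Sufu stood at 0.19, Disp1 at 0.0088 and Arrb1 at 0.34 in Sox5 KO. Among the named genes depth limits Gli1, Mycn, Hhip and the ligands, whose counts are few.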
